A study of Mus musculus with 2 samples.

Results

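The liver breaks down the aromatic amino acids along a tyrosine branch and a kynurenine branch, and the transcripts of 9 genes of these branches were followed in hepatocyte preparations from undamaged and from regenerating mouse liver. The genes were taken by name from the 27998 genes listed for each library: Tat, Hpd, Hgd and Fah (4 genes) for the tyrosine branch, and Tdo2, Afmid, Kmo, Kynu and Haao (5 genes) for the kynurenine branch. All 9 were found, each once. They are enzymes of these branches, not every step of them, and were not chosen by their values.

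Tyrosine aminotransferase (Tat) removes the amino group of tyrosine, and 4-hydroxyphenylpyruvate dioxygenase (Hpd), homogentisate dioxygenase (Hgd) and fumarylacetoacetase (Fah) open and cleave the ring, which yields fumarate and acetoacetate. Tryptophan dioxygenase (Tdo2) opens the ring of tryptophan as the first and rate-limiting step of its hepatic degradation. Arylformamidase (Afmid) then releases kynurenine, which kynurenine monooxygenase (Kmo), kynureninase (Kynu) and hydroxyanthranilate dioxygenase (Haao) convert towards quinolinate, a precursor of NAD. Tat and Tdo2 are classical hepatocyte enzymes whose transcription is induced by glucocorticoids.

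Hepatocytes were isolated by 2-step collagenase perfusion from C57BL/6 mice (male C57BL/6J in the study's methods), which per the labels were 10 to 12 weeks old, and were profiled by droplet scRNA-Seq with 3′ chemistry. In this assay a barcode marks a droplet and a unique molecular identifier (UMI) marks a captured transcript molecule. The first library came from healthy, undamaged liver (0 h) and the second from liver 48 h after partial hepatectomy (PHx), in which most of the liver is removed and the remainder regrows. Both libraries carry the same surgery entry among their protocol labels, no transgene or allele is named for either, and each was 1 hepatocyte preparation. With 1 library per group no test between groups was possible. Levels are UMIs summed over a set of barcodes and scaled to a common total of non-mitochondrial UMIs (counts per 1000000, CPM), and their 95% intervals cover counting error only, not the variation between mice. Fewer cells with a transcript, less RNA per cell and another share of free RNA in droplets without a cell cannot be told apart in such sums.

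Barcodes were divided by the share of their UMIs from the 13 mitochondrial (mt) genes. At 0 h, 52587 barcodes lay under 2% mt and 3870 above 30% mt, with a median of 1413 and 1213.5 non-mitochondrial UMIs. At 48 h, 522 lay under 2% mt and 765 above 30% mt, with medians of 5271.5 and 4411. The study removed cells with high mitochondrial content at a limit that its methods do not state. It kept far fewer cells at 0 h than the 0 h sets hold. The sets are therefore barcodes and not cells that the study called hepatocytes. The barcodes under 2% mt made up 88.8% of the 0 h library, with at least 1162 non-mitochondrial UMIs each. Whether a barcode held a cell or only free RNA was not tested, so levels are those of barcodes and not of hepatocytes. The 10 hepatocyte markers, Alb and Apoa1 among them, were detected in all 4 sets and summed to between 95966 and 135789 CPM. The markers of macrophages, endothelial cells, stromal cells, T and NK cells and B cells summed to at most 190 CPM each, cholangiocyte markers to at most 123 and erythroid markers to at most 246, and the T and NK and the B markers were all at 0 in the 48 h barcodes under 2% mt. Under 2% mt the stromal markers summed to 32.7 CPM at 0 h and 190.05 CPM at 48 h. Of these, 3 of 3 tested were more than 2-fold higher. The cholangiocyte markers summed to 21.1 and 123 CPM. At 48 h Krt19, Krt7, Epcam and Cldn7 were at 0, so Sox9 and Tstd1 gave that sum. The erythroid markers went from 246 to 27.7 CPM (4 of 4 tested more than 2-fold lower, median log2 ratio -6.07). Tested genes had a mean of at least 10 CPM over both sets. Of all 5716 such genes, 25.8% were more than 2-fold higher and 21.6% lower. A marker can reach that mean through 1 set alone, as Hbb-bs did (75.2 and 0.319 CPM), so these counts support no direction. Above 30% mt the stromal markers had 27.7 and 35.1 CPM, the cholangiocyte markers 18.7 and 89.3 CPM and the erythroid markers 54.5 and 27.6 CPM. There Krt19 was at 0 at 48 h, and Krt7 and Epcam had 0.392 CPM each. The part of these 3 lists in the results was not tested. The 148 barcode sequences that both libraries held made up 0.250% of the undamaged and 9.33% of the PHx48h barcodes, and leaving them out changed none of the counts of genes past 2-fold in the 4 comparisons of times and of mt classes.

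The genes lie on 9 different chromosomes of GRCm38 in the GENCODE M21 annotation, all protein coding. Tat is at chr8:109990437-109999803 on the plus strand with 12 exons, Hpd at chr5:123171807-123182727 on the minus strand, Hgd at chr16:37580153-37632020 on the plus strand and Fah at chr7:84585159-84606722 on the minus strand. Tdo2 is at chr3:81957090-81976202 on the minus strand with 12 exons, Afmid at chr11:117825924-117839908, Kmo at chr1:175620381-175662116 and Kynu at chr2:43555329-43682715 on the plus strand, and Haao at chr17:83831156-83847963 on the minus strand. Afmid lies almost wholly inside the protein-coding gene model Gm20708 on its own strand and touches Tk1 on the other, so its few UMIs are uncertain. Hpd shares its interval with the noncoding Gm26745 on the same strand and with Psmd9 on the other, and Kmo overlaps Fh1 on the other strand. Whether the counting used strand is not given in the sources used here.

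Of the 9 genes, 8 had an entry in the RefSeq promoter table (GRCm38.p6) and Kynu had none. The sequences of Tat and Tdo2 are shown because these genes open their branches and moved furthest in opposite directions in the barcodes above 30% mt. Each line gives the 250 bases before the start annotated in RefSeq, 5′ to 3′ on the strand of the gene. The window is chr8:109990186-109990435 (plus) for Tat and chr3:81975729-81975978 (minus) for Tdo2. The RefSeq start can differ from the GENCODE one, and the windows of Tdo2, Fah, Kmo and Haao lie inside the GENCODE interval of their gene. Capitals mark the CCAAT box on either strand.
Tat: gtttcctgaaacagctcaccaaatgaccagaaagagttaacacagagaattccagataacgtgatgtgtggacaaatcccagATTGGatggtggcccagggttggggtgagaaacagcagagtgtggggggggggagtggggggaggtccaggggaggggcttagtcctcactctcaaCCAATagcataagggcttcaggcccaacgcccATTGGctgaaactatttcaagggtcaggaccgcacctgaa
Tdo2: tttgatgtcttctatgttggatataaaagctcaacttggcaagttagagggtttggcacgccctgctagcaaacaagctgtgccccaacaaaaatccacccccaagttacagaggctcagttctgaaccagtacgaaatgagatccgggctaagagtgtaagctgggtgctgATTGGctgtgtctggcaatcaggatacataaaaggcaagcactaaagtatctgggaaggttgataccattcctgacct
Tat held 3 such matches, at positions -168 to -164, -72 to -68 and -40 to -36 counted back from the start, and Tdo2 held 1, at -78 to -74. Hgd was the only other gene of the 8 with CCAAT in these 250 bases, and 33.8% of all 32851 promoters of this length hold it on either strand. The letters AGGTCA, a nuclear receptor motif, occurred before Hgd, Tdo2 and Haao and in 14.0% of all promoters, and TATAAA occurred before Hgd and Tdo2 and in 12.4%. TTNCNNAA, a C/EBP-like motif, occurred before Tat, Hgd and Kmo and in 36.8% of all promoters. GTTAAT, an HNF1 motif, and TGTTCT, a glucocorticoid receptor motif, each occurred before Haao and before none of the other 7, with shares of 6.43% and 16.1% of all promoters. None of these matches overlapped a CCAAT box, and they describe letters in this window only.

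Tat, the first enzyme of the tyrosine branch, was higher at 48 h than at 0 h in the barcodes above 30% mt and had a log2 ratio of 0.13 under 2% mt. Tdo2, the first of the kynurenine branch, was lower at 48 h in both mt classes. In the barcodes above 30% mt, 1 of the 9 genes was more than 2-fold higher at 48 h (Tat) and none was more than 2-fold lower. Of all 6718 genes with a mean of at least 10 CPM over both sets, 30.6% were more than 2-fold higher and 5.52% more than 2-fold lower. Tat was 1 of 8 tested members, a smaller share than the background on the higher side. In the barcodes under 2% mt, none was more than 2-fold higher and 3 were more than 2-fold lower (Tdo2, Kynu and Afmid), where the background over 5716 genes was 25.8% and 21.6%. Afmid did not reach a mean of 10 CPM in either comparison and the other 8 did, so 2 of 8 tested members were lower, a share near the background.

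**Figure D1:**
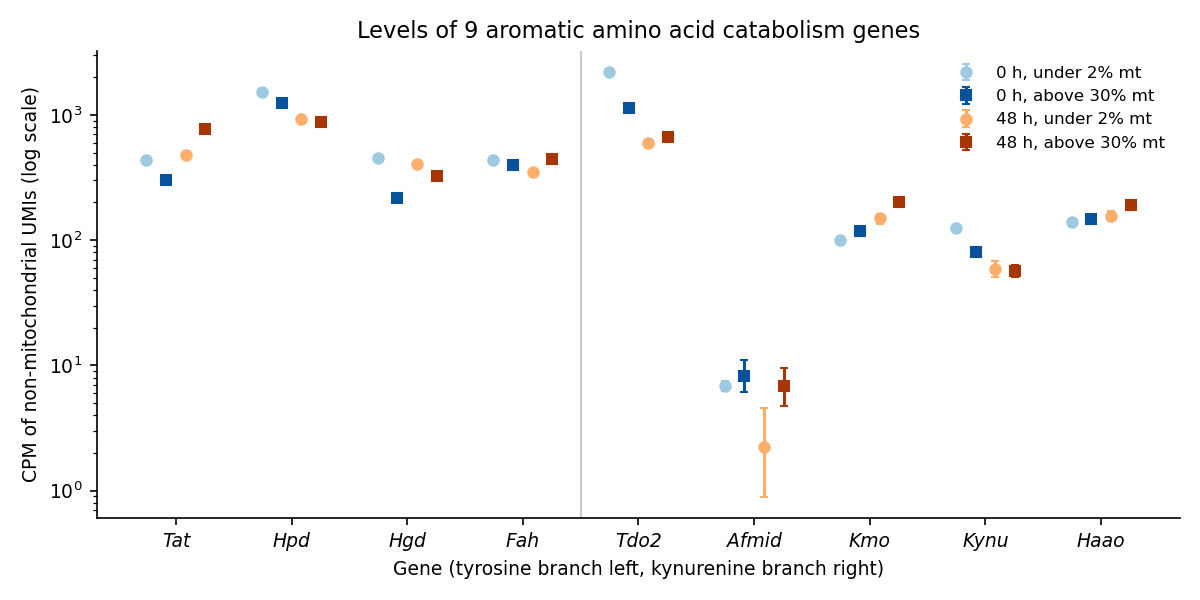
Levels of the 9 genes in CPM of non-mitochondrial UMIs (log scale) in 4 sets of barcodes, with exact Poisson 95% intervals that are often smaller than the points. Tat sits at 768 CPM in the 48 h barcodes above 30% mt against 303 at 0 h. In the barcodes under 2% mt, Tdo2 has 2189.6 CPM at 0 h and 591 CPM at 48 h. Whether these barcodes held cells was not tested.

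Tat, the first enzyme of tyrosine breakdown, was counted 1753 times at 0 h and 3922 times at 48 h in the barcodes above 30% mt. This gave 303 CPM (95% interval 289 to 318) at 0 h and 768 CPM (745 to 793) at 48 h. The level at 48 h was 2.53-fold higher (2.39 to 2.68), a log2 ratio of 1.34. In the barcodes under 2% mt Tat stood at 438 CPM at 0 h and 479 CPM at 48 h, a ratio of 1.09 (1.04 to 1.15). The 48 h barcodes above 30% mt were thus the highest of the 4 sets, the 0 h barcodes above 30% mt were the lowest, and both sets under 2% mt lay between them.

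Hpd, which converts 4-hydroxyphenylpyruvate to homogentisate, stood at 1243 CPM at 0 h and 880 CPM at 48 h above 30% mt. Its level at 0 h was 1.41-fold (1.36 to 1.47) that at 48 h. Under 2% mt the values were 1516 and 921 CPM, and the level at 0 h was 1.65-fold (1.59 to 1.71) that at 48 h. Hpd was thus lower at 48 h in both classes, by less than 2-fold.

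Hgd, which opens the ring of homogentisate, had 217 CPM at 0 h and 324 CPM at 48 h above 30% mt, a log2 ratio of 0.58 (0.48 to 0.69). Under 2% mt it had 451 and 408 CPM, a log2 ratio of -0.14 (-0.23 to -0.06). Fah, the last enzyme of the branch, had 397 and 447 CPM above 30% mt, a log2 ratio of 0.17 (0.09 to 0.26), and 437 and 350 CPM under 2% mt, a log2 ratio of -0.32 (-0.41 to -0.23). Both genes therefore had a ratio above 1 in the first class and below 1 in the second, and the difference between the classes was not tested.

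Tdo2, the entry enzyme of the kynurenine branch, was counted 6541 times at 0 h and 3377 times at 48 h above 30% mt, at 1132 CPM (1105 to 1160) and 662 CPM (640 to 684). Its level at 0 h was 1.71-fold (1.64 to 1.78) that at 48 h. Under 2% mt it stood at 2189.6 CPM at 0 h and 591 CPM at 48 h, and the level at 0 h was 3.70-fold (3.54 to 3.88) that at 48 h. This log2 ratio of -1.89 was further from 0 than that of any other of the 9 genes in either class. Both 0 h sets lay above both 48 h sets.

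Kynu, which cleaves hydroxykynurenine and kynurenine, also lay higher in both 0 h sets. It had 80.0 CPM at 0 h and 56.8 CPM at 48 h above 30% mt, a log2 ratio of -0.49 (-0.71 to -0.28). Under 2% mt it had 126 and 59.3 CPM, and the level at 0 h was 2.13-fold (1.84 to 2.47) that at 48 h.

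Kmo, which hydroxylates kynurenine, moved the other way. It had 119 CPM at 0 h and 202 CPM at 48 h above 30% mt, a ratio of 1.70 (1.54 to 1.87). Under 2% mt it had 99.8 and 149 CPM, a ratio of 1.49 (1.36 to 1.64), so that both 48 h sets lay above both 0 h sets. Haao, which produces the precursor of quinolinate, had 148 and 191 CPM above 30% mt and 140 and 156 CPM under 2% mt, with ratios of 1.29 (1.18 to 1.42) and 1.11 (1.02 to 1.22).

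Afmid was near the limit of detection, with 48 UMIs at 0 h and 35 at 48 h above 30% mt, at 8.31 and 6.86 CPM. Under 2% mt it had 540 UMIs at 0 h and 7 at 48 h, and the level at 0 h was 3.07-fold that at 48 h with an interval from 1.48 to 7.68. Above 30% mt the level at 0 h was 1.21-fold that at 48 h with an interval from 0.767 to 1.93, so no difference was detectable at this depth.

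Summed over its 4 genes, the tyrosine branch had 2160 CPM at 0 h and 2419 CPM at 48 h above 30% mt, a ratio of 1.12 (1.09 to 1.15), and under 2% mt a ratio of 0.760 (0.741 to 0.778). Summed over its 5 genes, the kynurenine branch had a ratio of 0.752 (0.727 to 0.778) above 30% mt and of 0.374 (0.360 to 0.387) under 2% mt. Without Tdo2 these became 1.29 (1.21 to 1.37) and 0.983 (0.926 to 1.04). The lower sum of the kynurenine branch at 48 h was therefore carried by Tdo2.

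**Figure D2:**
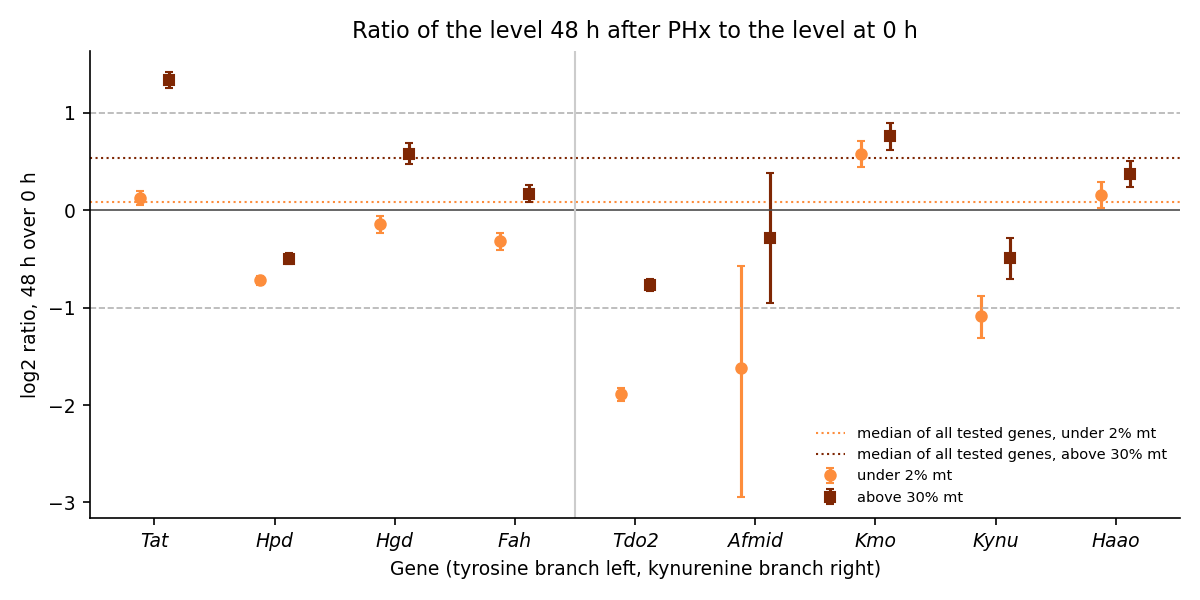
Log2 ratio of the level at 48 h to that at 0 h for the 9 genes, in barcodes under 2% mt (circles) and above 30% mt (squares), with exact conditional 95% intervals. Dotted lines mark the median of all tested genes (0.09 and 0.54) and dashed lines a 2-fold difference; Tat lies at 1.34 above 30% mt and Tdo2 at -1.89 under 2% mt.

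The median log2 ratio of all tested genes was not 0. It was 0.54 above 30% mt and 0.09 under 2% mt, against medians of 0.27 and -0.23 over the 8 tested members. Taken relative to that median, Tat was still higher at 48 h above 30% mt (0.80) and Tdo2 (-1.32), Hpd (-1.04) and Kynu (-1.04) were lower. Kmo went from 0.76 to 0.22, Hgd was close to the median (0.04), and Fah (-0.37) and Haao (-0.17) changed sign. TMM scaling moved the median above 30% mt to -0.05. Under it the log2 ratio of Tat fell to 0.78, below 2-fold, and that of Kmo to 0.20. Hpd, Tdo2 and Kynu passed 2-fold to the lower side.

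Within each library the genes also differed between the mt classes, and not in the same way at 0 h and 48 h. At 0 h the level of Hgd under 2% mt was 2.08-fold (1.97 to 2.20) that above 30% mt, and Hgd alone of the 9 genes was past 2-fold, against a background of 11.0% of 5781 genes in that direction. Tdo2 was just inside the limit at 1.93-fold (1.89 to 1.98), and Kynu at 1.58-fold (1.44 to 1.74). At 48 h no tested member was past 2-fold, and Afmid was higher above 30% mt on 35 against 7 UMIs, with a background of 31.2% of 6563 genes in that direction.

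For 3 genes the direction was opposite in the 2 libraries. Tat had a log2 ratio (above 30% mt against under 2% mt) of -0.53 (-0.60 to -0.46) at 0 h and of 0.68 (0.59 to 0.77) at 48 h. Tdo2 had -0.95 (-0.99 to -0.92) and 0.16 (0.08 to 0.24), and Fah had -0.14 (-0.20 to -0.08) and 0.35 (0.25 to 0.46). These differences between libraries were not tested. The median of all tested genes was -0.10 at 0 h and 0.49 at 48 h, and relative to it the 48 h values were 0.19 for Tat, -0.33 for Tdo2 and -0.14 for Fah. Counted against all UMIs, the mitochondrial ones included, the log2 ratio of Tat at 48 h became -0.45, that of Tdo2 -0.97 and that of Fah -0.78.

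Along 6 steps of the mt share, which were set after the data were seen, Tat at 0 h had 438 CPM under 2% mt, 397 at 2% to 10%, 406 at 10% to 30%, 311 at 30% to 45%, 298 at 45% to 60% and 235 above 60%. At 48 h the same steps gave 479, 312, 768, 775, 783 and 731 CPM. Tat at 48 h was thus high in every step above 10% mt, between 731 and 783 CPM. Tdo2 at 0 h had 2189.6, 1826, 1562, 1216, 1033 and 1201 CPM, and at 48 h it had 591, 381, 700.0, 701, 682 and 572 CPM. In each step the level of Tdo2 at 0 h lay above that at 48 h.

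The step from 2% to 10% mt at 48 h was the lowest of the 6 for Tat, Hpd, Hgd, Fah, Tdo2, Kmo, Kynu and Haao. In that step 39.1% of 156 barcodes carried at least 1% of their non-mitochondrial UMIs from markers of macrophages, endothelial, stromal, T and NK, B or erythroid cells, against 0.766% under 2% mt and 4.20% at 10% to 30%. The part of these barcodes in the lower levels was not tested.

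**Figure D3:**
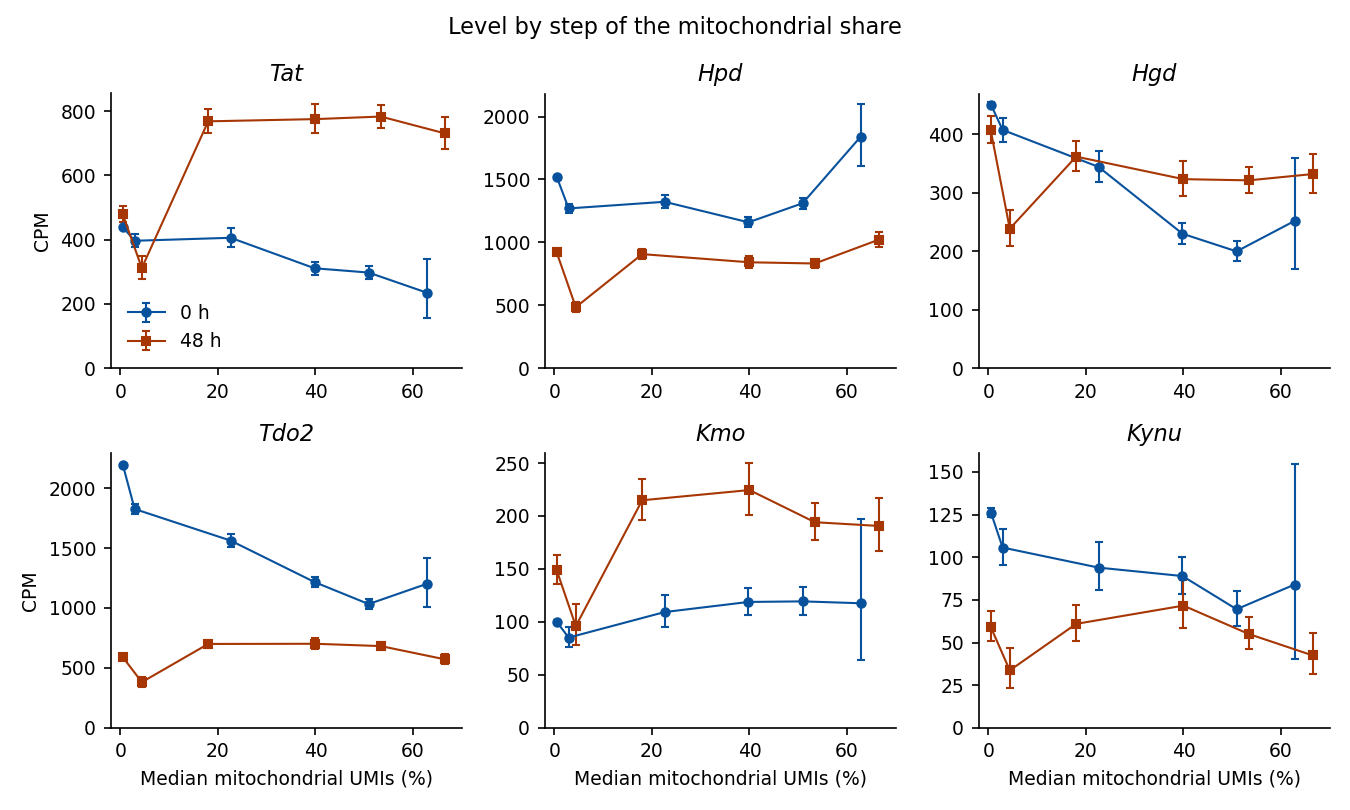
Level (CPM) of 6 of the genes against the median mt share of 6 steps of barcodes, at 0 h (circles) and 48 h (squares), with exact Poisson 95% intervals. Tat lies between 731 and 783 CPM in the 4 steps above 10% mt at 48 h and between 235 and 406 CPM at 0 h, and Tdo2 declines from 2189.6 to 1033 CPM over the first 5 steps at 0 h.

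Hepatocytes differ along the axis from the portal to the central vein, and 12 perivenous and 12 periportal marker genes, none of them a member, were used to order the barcodes above 30% mt of each library into 3 equal parts. The ordering is a range and not a cell type. At 0 h, 3489 of 3870 barcodes had at least 5 UMIs over both lists and gave 1163 barcodes per part. At 48 h all 765 did and gave 255 per part, with median depths of 6574 UMIs in the periportal-most and 3563 in the perivenous-most part.

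Hpd and Hgd of the tyrosine branch were higher in the perivenous-most part at 0 h. Hpd rose from 892 CPM in the periportal-most part over 1101 CPM in the middle to 1920.1 CPM in the perivenous-most part, a ratio of 2.15 (2.03 to 2.29). Hgd had 168, 220.5 and 285 CPM, a ratio of 1.69 (1.47 to 1.96). These were the only members past 1.5-fold, and 24.0% of 5918 genes were past it in that direction, with a median log2 ratio of 0.26 over all of them. Haao, with 122, 147 and 180.0 CPM, had a ratio of 1.48 (1.24 to 1.77), and Fah a ratio of 1.31 (1.19 to 1.46).

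Tat ran the other way from its neighbours in the pathway. It had 355, 285 and 269 CPM from the periportal-most to the perivenous-most part at 0 h, a ratio of 0.759 (0.670 to 0.858). Tdo2 had 1098, 1164 and 1151 CPM, a ratio of 1.05 (0.984 to 1.12). Kmo (1.16), Kynu (0.988) and Afmid (0.959) had intervals that held 1.

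At 48 h Hpd was again the member with the largest perivenous excess. It had 743, 816 and 1207 CPM, a ratio of 1.63 (1.52 to 1.74), and it alone was past 1.5-fold, with a background of 9.81% of 7186 genes. Hgd had a ratio of 1.11 (0.982 to 1.25) and Haao of 1.05 (0.893 to 1.23). Tat had 855, 728 and 662 CPM, a ratio of 0.774 (0.713 to 0.840). Tdo2 had 738, 660.1 and 526 CPM, a ratio of 0.714 (0.651 to 0.781), and Kynu a ratio of 0.706 (0.507 to 0.970).

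**Figure D4:**
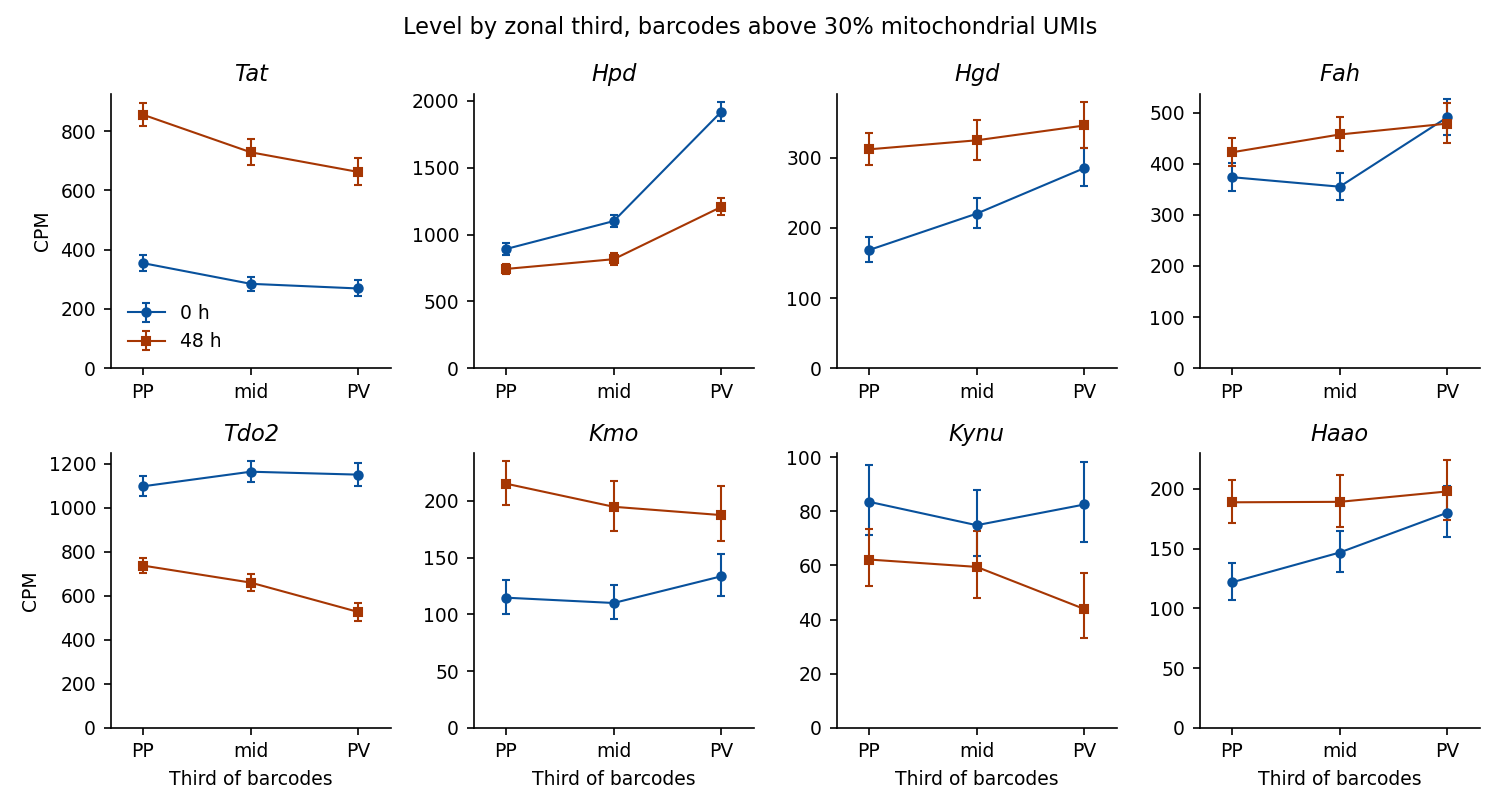
Level (CPM) of 8 of the genes in 3 equal parts of the barcodes above 30% mt, ordered from periportal-most (PP) to perivenous-most (PV), at 0 h (circles) and 48 h (squares), with exact Poisson 95% intervals. Hpd climbs to 1920.1 CPM at 0 h and 1207 CPM at 48 h in the perivenous-most part, and Tat lies between 662 and 855 CPM at 48 h and between 269 and 355 CPM at 0 h in every part.

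The lists themselves moved with time. In the barcodes above 30% mt, 8 of the 12 perivenous markers were more than 2-fold lower at 48 h and none higher, and 6 of the 12 periportal markers were more than 2-fold higher and 1 lower, where the background was 5.52% lower and 30.6% higher. The ratio of 48 h to 0 h was therefore also taken within each part, a comparison added after the data were seen. For Tat it was 2.41 (2.21 to 2.63) in the periportal-most, 2.56 (2.31 to 2.83) in the middle and 2.46 (2.18 to 2.78) in the perivenous-most part, so the difference was as large in each part as overall. For Tdo2 it was 0.672 (0.630 to 0.716), 0.567 (0.527 to 0.610) and 0.457 (0.418 to 0.5004), furthest from 1 in the perivenous-most part. Kmo was higher at 48 h in all 3 parts, with ratios of 1.88, 1.77 and 1.40. Hgd had ratios of 1.85 (1.62 to 2.12), 1.47 (1.295 to 1.68) and 1.21 (1.06 to 1.39), with 312, 325 and 346 CPM at 48 h. Its level at 0 h is the denominator of these ratios, so their order is not separate from that of the 0 h levels. Since each library was divided on its own ranking, the parts of the 2 libraries do not cover the same range of perivenous share.

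The same ordering of the barcodes under 2% mt, also added after the data were seen, gave no such differences at 0 h. All 9 genes had a ratio between 0.974 (Hgd) and 1.005 (Tdo2) of the perivenous-most to the periportal-most 17529 barcodes. The ordering separated these barcodes only weakly. Cyp2e1, a perivenous marker, had 4928.5 CPM in their periportal-most and 6497.5 CPM in their perivenous-most part. In the other mt class at 0 h it had 905.82 and 7393.2 CPM. The flat ratios therefore cannot show whether the 9 genes differ along the axis in the barcodes under 2% mt. At 48 h, with 174 barcodes per part, Kmo had a ratio of 0.580 (0.453 to 0.738) and Tat of 0.837 (0.739 to 0.947), while Hpd had 1.03 (0.943 to 1.12). Afmid had 3 UMIs over both parts.

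The share of barcodes with at least 1 UMI was taken after thinning each barcode to 500 non-mitochondrial UMIs, which left out 75 of the 0 h barcodes above 30% mt and none elsewhere. Tat was found in 14.2% (13.1 to 15.4) of the 0 h and 30.3% (27.1 to 33.7) of the 48 h barcodes above 30% mt, and without thinning in 32.9% and 90.3%. Tdo2 was found in 41.5% (40.0 to 43.1) and 29.4% (26.2 to 32.8), and without thinning in 71.1% and 86.0%, so that the unthinned shares ran against the levels. Under 2% mt Tdo2 was found in 66.5% at 0 h and 27.6% at 48 h after thinning. Of the 9 genes, 6 were found in a larger share at 48 h above 30% mt (Tat, Hgd, Fah, Afmid, Kmo and Haao) and 3 in a smaller share (Hpd, Tdo2 and Kynu). The shares were not taken over all genes, so this count has no background. The median log2 ratio of the level over all tested genes was 0.54 in this class. The intervals overlapped for Fah, with 17.7% (16.5 to 19.0) and 21.4% (18.6 to 24.5), and for Afmid, with 13 of 3795 and 4 of 765 barcodes, and the level of Afmid was lower at 48 h.

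The variance of the thinned count over its mean is 1 for Poisson counts. It lies near 1 by construction where the mean is far below 1, as for Afmid, Kmo, Kynu and Haao. At 500 UMIs it was between 0.925 and 1.07 for the members, except for Hpd at 0 h above 30% mt (1.17, mean 0.666). Hpd at 0 h under 2% mt had 1.01 at a mean of 0.76. At 1000 UMIs it was 1.31 for Hpd at 0 h and 1.11 for Hpd at 48 h, both above 30% mt. It was 1.15 for Kmo at 48 h under 2% mt, and 1.10 for Tat and for Tdo2 at 48 h above 30% mt. In the 0 h barcodes under 2% mt it was 1.03 for Hpd and for Tdo2 at 1000 UMIs, at means of 1.52 and 2.2. It could not be taken for Afmid at 48 h under 2% mt, where 0 of 522 barcodes kept a UMI, with an exact 95% upper limit of 0.704%.

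Member UMIs were also counted in barcodes rich in markers of other liver cells. Such a barcode may hold more than 1 cell, as doublets were not removed. The 193 undamaged barcodes with at least 1% of their non-mitochondrial UMIs from macrophage markers, at a median depth of 2826, all held at least 1 member UMI, and their summed level of the 9 genes was 63.2% of that in the 0 h barcodes under 2% mt. Tat had 424 CPM (371 to 482) in them, 96.7% of its level under 2% mt, and Hgd had 80.4%, while Hpd, Fah, Tdo2, Kmo, Kynu and Haao had between 51.5% and 62.0%. Against the 0 h barcodes above 30% mt the 9 genes summed to 93.7%, with Tat at 140%, Hgd at 167% and Tdo2 at 111%. Alb, a hepatocyte marker, had 48.0% of its level under 2% mt and 51.1% of that above 30% mt in the same 193 barcodes. In the 16 macrophage-rich and 25 stromal-rich barcodes at 48 h the members summed to 35.2% and 33.2% of their level under 2% mt, and to 31.0% and 29.3% of that above 30% mt. Alb had 45.1% and 43.6%, and 19.3% and 18.7%, in the same order. Shares of barcodes with a UMI are therefore not shares of cells that express the gene. The source of these UMIs was not tested.

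PHx at 48 h falls in the period of hepatocyte division, and the barcodes above 30% mt were set apart by 25 proliferation genes. Only 4 barcodes reached 0.5% of non-mitochondrial UMIs from these genes, with 8 UMIs each of Tat and Tdo2 among them, too few for a comparison. The 229 barcodes at or above 0.1% were therefore compared with the 536 below it, a limit set after the data were seen. None of the 9 genes was past 1.5-fold in either direction, where 10.4% of 7208 genes were higher and 4.74% lower. Tdo2 had 719 CPM in the barcodes with few and 525 CPM in those with more proliferation UMIs, a ratio of 0.730 (0.674 to 0.791). Tat had 817 and 653 CPM, a ratio of 0.799 (0.743 to 0.859), and Haao a ratio of 0.7996 (0.689 to 0.926). Kmo had a ratio of 1.23 (1.07 to 1.40). Hpd (0.988), Hgd (0.941), Fah (0.992) and Kynu (0.944) had intervals that held 1. Tat in both groups lay above its 303 CPM at 0 h.

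The neighbouring steps of both pathways were examined with lists of further genes. Of 5 genes that make, recycle or regulate the pterin cofactor of aromatic amino acid hydroxylation, all tested, 2 were more than 2-fold higher at 48 h above 30% mt and none lower, with a background of 30.6% on the higher side, which is near the share of the list. Pcbd1, which recycles the cofactor, had 102 CPM at 0 h and 262 CPM at 48 h, a ratio of 2.57 (2.33 to 2.83). Gch1, which starts cofactor synthesis, had 93.3 and 227 CPM, a ratio of 2.44 (2.20 to 2.70). Gchfr (1.96) and Pcbd2 (1.85) stayed below the limit, as did Qdpr, which regenerates the cofactor, with 177 and 230.4 CPM and a ratio of 1.30 (1.197 to 1.42). The median log2 ratio of the list was 0.97, against 0.54 over all tested genes.

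Of 5 tested genes of the other tyrosine routes, Got2, a mitochondrial aspartate aminotransferase, was more than 2-fold higher (160 and 366 CPM, a ratio of 2.29, 2.11 to 2.48) and none was lower. Maob and Maoa oxidise amines, and Maob had a ratio of 1.76, while Maoa was not tested at this level. Ddc, which decarboxylates aromatic amino acids, had a ratio of 0.586 and Got1 of 1.35.

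Of 10 tested genes of the kynurenine and NAD routes, 4 were more than 2-fold higher at 48 h above 30% mt and 1 was lower, shares near the background of 30.6% and 5.52%. Nampt, the key enzyme of NAD salvage from nicotinamide, had 15.1 CPM at 0 h and 72.3 CPM at 48 h, a ratio of 4.80 (3.79 to 6.14). Acmsd, which diverts the pathway away from quinolinate, had 11.4 and 39.8 CPM, a ratio of 3.48 (2.63 to 4.67). Qprt, which uses quinolinate for NAD synthesis, had 50.01 and 128 CPM, a ratio of 2.55 (2.22 to 2.94), and Naprt, which starts NAD synthesis from nicotinate, a ratio of 2.25 (1.98 to 2.57). Ido2, named after its values were seen, was the lower gene, with 52.4 and 25.5 CPM. Ido1, which like Tdo2 opens the ring of tryptophan, had 0 UMIs in all of these sets.

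Of 4 tested amino acid transporters, 1 was more than 2-fold lower, with a background of 5.52%, and none was higher. It was Slc16a10, a facilitative carrier of aromatic amino acids, with 87.6 CPM at 0 h and 39.0 CPM at 48 h above 30% mt. Slc38a4, a carrier of small neutral amino acids, had a ratio of 0.595 (0.567 to 0.625), Slc3a2 of 0.666 (0.529 to 0.837) and Slc43a1 of 1.29 (0.942 to 1.78). Under 2% mt all 3 tested (Slc16a10, Slc38a4 and Slc3a2) were more than 2-fold lower, with a background of 21.6%.

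The glucocorticoid receptor and its known targets were listed because Tat and Tdo2 belong to the same class of induced genes. Of 8 tested, 4 were more than 2-fold higher at 48 h above 30% mt and 1 was lower, where the background was 30.6% and 5.52%. Per1, Sgk1 and Fkbp5 reached the mean of 10 CPM only through the 48 h barcodes, so that this count supports no direction. Per1, a clock gene, went from 6 to 127 UMIs (1.04 and 24.9 CPM), a ratio of 24.0 (10.7 to 66.5). Sgk1, a kinase, had 2.77 and 18.2 CPM, a ratio of 6.58 (3.85 to 12.0), and Fkbp5, a chaperone of the receptor, had 4.50 and 26.8 CPM, a ratio of 5.97 (3.90 to 9.46). Pck1, the entry enzyme of gluconeogenesis, had 317 and 903 CPM, a ratio of 2.85 (2.70 to 3.01), whereas G6pc, its last enzyme, had 242 and 54.9 CPM. The receptor gene Nr3c1 had 52.4 and 71.3 CPM, a ratio of 1.36 (1.16 to 1.59). Under 2% mt none of 5 tested genes of the list was more than 2-fold higher and Nr3c1 and G6pc were more than 2-fold lower. Per1 (14 and 22 UMIs, a ratio of 39.5, 19.3 to 83.4), Zbtb16 (4.09, 2.15 to 7.24), Fkbp5 (2.504, 1.73 to 3.53) and Sgk1 (2.49, 1.66 to 3.603) were below the mean of 10 CPM there and had ratios above 2. The list was written with earlier results of these libraries known and is no independent evidence of a direction.

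Under 2% mt, where the background was 25.8% higher and 21.6% lower, Pcbd1 was the 1 of 5 genes of the pterin cofactor past 2-fold (ratio 2.3003). Of the other tyrosine routes none of 5 was higher and Ddc and Maob were more than 2-fold lower. Of the kynurenine and NAD routes 3 of 10 were higher (Acmsd, Nampt and Nmnat1) and Ido2 was lower. Nmnat1 reached the mean of 10 CPM only through the 48 h barcodes (6.72 and 13.7 CPM), so this count supports no direction.

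Genes with a like pattern were sought by the distance between profiles of log2 levels over the 6 sets of barcodes (under 2%, 2% to 30% and above 30% mt in each library), among 1926 genes with at least 100 CPM in any of them. The summed tyrosine branch was closest to Agxt (root mean square difference 0.0831), Acat3 (0.0916) and Tmed5 (0.0924). The summed kynurenine branch was closest to Tob1 (0.0746), Yme1l1 (0.0806) and Carkd (0.0893). The 6 sets from 2 libraries are few points, and the profiles share the depth and composition of these libraries.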

How the data were processed

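Single-cell libraries of hepatocytes from undamaged liver and from liver 48 h after PHx were made by the authors with 10X Genomics Single Cell 3′ v2 chemistry, and the reads were processed with Cell Ranger against mm10 per the submitters' processing notes. The authors deposited whole-number UMI counts per gene and barcode, without normalization. Depth was 96118593 UMIs over 59202 barcodes at 0 h and 18198719 over 1586 at 48 h, and the shallowest barcodes had 1183 and 4578 UMIs.

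From these counts, UMIs were summed over barcodes above 30% or under 2% mitochondrial UMIs and divided by the non-mitochondrial total. Levels carry exact Poisson and ratios exact conditional binomial 95% intervals (SciPy 1.17.1). A gene counted as past the limit at 2-fold, or at 1.5-fold between parts ordered by zonal or proliferation genes, and backgrounds used genes with a mean of at least 10 CPM over the sets compared. The ratios and calls were tested on simulated Poisson counts, the model that the intervals assume. The simulation held no variation between mice and cannot show how the calls hold under it. TMM factors came from edgeR 4.0.16. Doublets were not removed. Groups came from the labelled time point, and no p-value was computed with 1 library per group.

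All 9 genes are named. From each further list, the counts and up to 4 genes with the largest log2 ratio in size above 30% mt are named. Other list genes named to complete a count or a pathway step, such as Qdpr, Ido1, Ido2, Maoa, Nr3c1 and Pck1, were chosen after their values were seen. The genes and lists were chosen with earlier results of these data known. Alternatives were other scalings, mt limits, depths, barcode sets and fold limits. Cell types and zonation outside these sets were not analysed here. A gene of a neighbouring step is not reported here.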

Additional observations from a re-analysis of the deposited data

Results flagged for a closer look

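The time difference had opposite directions in the 2 mt classes for Hgd and Fah, with counting intervals on either side of 0. The log2 ratio of 48 h to 0 h above 30% mt minus that under 2% mt was 0.72 for Hgd and 0.49 for Fah. Relative to the median of all tested genes, the ratios of Hgd were 0.04 and -0.24 and those of Fah -0.37 and -0.41, so that Fah no longer differed in direction. The difference between the classes was not tested.

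The difference between mt classes had opposite directions in the 2 libraries for Tat, Fah and Tdo2. The log2 ratio of the barcodes above 30% mt to those under 2% mt at 48 h minus that at 0 h was 1.21 for Tat, 0.49 for Fah and 1.11 for Tdo2. With TMM scaling the 48 h ratios of Fah and Tdo2 turned negative, and with all UMIs as the total that of Tat did as well. The difference between the libraries was not tested, and library and time cannot be told apart.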

How the results depend on the processing

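No paired analysis was possible because each group had 1 library. The count of members past 2-fold between the times under 2% mt was 3 under 9 of the 10 alternatives run and 4 at a limit of 1.5-fold. Above 30% mt the count of 1 became 3 with TMM scaling (Hpd, Tdo2 and Kynu, all lower at 48 h), 2 without the 20 most abundant genes or with all UMIs as the total (Tat and Tdo2), and 3 at a limit of 1.5-fold.

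Between mt classes at 0 h the count of 1 became 2 with TMM scaling, with the mean of single-barcode CPM and with limits of 50% and 1% mt (Hgd and Tdo2), 0 without the 20 most abundant genes or with limits of 20% and 5%, 6 with all UMIs as the total and 3 at 1.5-fold. At 48 h the count of 1 (Afmid, higher) became 3 with all UMIs (Hpd, Hgd and Kynu, all lower, Afmid not among them) and 2 at 1.5-fold (Tat and Afmid, higher).

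Between zonal parts at 0 h the count of 2 became 4 with at least 20 list UMIs, 3 with at least 1000 non-mt UMIs (Haao added), 3 between the outer parts of 5 (Afmid lower) and 1 at 2-fold. At 48 h the count of 1 became 4 between the outer parts of 5, 0 at 2-fold and 3 above 50% mt. For the proliferation genes the count was 3 with 4 barcodes and 0 with the added limit. The count of genes found in more barcodes at 48 h was 6 at both thinning depths. No member past the limit of its comparison in the reported values changed sign. Members within it did in several comparisons. With all UMIs the log2 ratio between mt classes at 48 h went from 0.68 to -0.45 for Tat and below 0 for Fah, Tdo2, Kmo and Haao. Hpd and Kynu, at -0.07 and -0.06 in that comparison, moved to between -1.20 and 0.13. Between the times above 30% mt the sign changed for Fah under 3 of 9 alternatives and for Haao under 1. Under 2% mt it changed for Tat under 2 and for Haao under 1. Across the alternatives the log2 ratio of Tat above 30% mt lay between 0.78 and 1.37 and that of Tdo2 between -1.34 and -0.75, and under 2% mt that of Tdo2 between -2.08 and -1.86. The causes of these changes were not tested. The depth of Afmid and the single library per time limit every comparison.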
